A study of Mus musculus with 6 samples.

Results

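Pannexins and connexins form the large-pore channels through which cells release ATP and pass ions and small molecules to their neighbours. The 7 genes described here, Panx1, Gja1, Gja4, Gja5, Gjb1, Gjb2 and Gjc1, were taken by symbol from the 33696 genes of the deposited count matrices. They were followed as unique molecular identifiers (UMIs, 1 for each captured RNA molecule) in single cells from the kidneys of 3 Sham and 3 DOCA-salt mice, with 1 library a mouse. All mice were C57BL/6 males, bought at 8 to 10 weeks of age, before surgery and treatment. DOCA-salt mice lost the left kidney, and 1 week later were given a 50 mg pellet of the mineralocorticoid deoxycorticosterone acetate and drank 1% NaCl for 21 days. Sham mice had sham surgery, normal water and no pellet, so the loss of 1 kidney and the DOCA-salt treatment cannot be told apart in any difference below. The comparison asked which of these channels changed in the hypertensive kidney, and in which cells.

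Pannexin 1 forms single-membrane channels that open after caspase cleavage, stretch or receptor signalling and let ATP out of the cell, where it acts on P2 receptors such as P2X7. Connexins assemble into hemichannels, and hemichannels of adjoining cells dock into gap junctions. In the kidney, Gja4 (Cx37), Gja5 (Cx40), Gja1 (Cx43) and Gjc1 (Cx45) are known from blood vessels, where they conduct signals along the wall, and Gja5 also couples the renin-producing cells of the juxtaglomerular apparatus. Gjb1 (Cx32) and Gjb2 (Cx26) are epithelial connexins, best known from liver and cochlea.

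On the GRCm39 build of the files, Panx1 (ENSMUSG00000031934) lies on the minus strand of chromosome 9 at 14913424 to 14956813. Gja1 (ENSMUSG00000050953) is on the plus strand of chromosome 10 at 56253241 to 56278609, Gja4 (ENSMUSG00000050234) on the minus strand of chromosome 4 at 127205214 to 127207851, and Gja5 (ENSMUSG00000057123) on the plus strand of chromosome 3 at 96812009 to 96984732. Gjb1 (ENSMUSG00000047797) is on the plus strand of chromosome X at 100419984 to 100429547, Gjb2 (ENSMUSG00000046352) on the minus strand of chromosome 14 at 57335919 to 57342240, and Gjc1 (ENSMUSG00000034520) on the minus strand of chromosome 11 at 102686879 to 102710532. Exons of Panx1, Gja1 and Gja4 overlap lncRNA exons of the opposite strand, and exons of Gja5 overlap those of Gpr89. Whether the counting used strand is not given in the sources used here, so reads of these pairs may be mixed.

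The mineralocorticoid receptor is a transcription factor, so the upstream sequences of 3 members are shown: Panx1 and Gjb2, which moved in opposite directions in whole kidneys, and Gjb1, the member in which receptor motif letters were found. Each run is the 250 bases before a RefSeq start site on build GRCm38.p6, 5′ to 3′ on the gene's strand, and was not converted to the build of the files. Capitals mark matches to the 3 motifs searched on both strands. The receptor motif was TGTTCT or AGAACA, a short motif shared by the mineralocorticoid and glucocorticoid receptors. The others were an HNF1 motif GTTAAT or ATTAAC and a SOX core ACAATG or CATTGT.
Panx1, chr9:15045479-15045728, minus strand: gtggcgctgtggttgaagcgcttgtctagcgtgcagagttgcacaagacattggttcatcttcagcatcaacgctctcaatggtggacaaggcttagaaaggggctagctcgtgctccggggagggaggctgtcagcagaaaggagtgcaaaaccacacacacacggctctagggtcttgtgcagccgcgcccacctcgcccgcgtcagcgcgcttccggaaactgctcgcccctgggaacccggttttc
Gjb2, chr14:57104703-57104952, minus strand: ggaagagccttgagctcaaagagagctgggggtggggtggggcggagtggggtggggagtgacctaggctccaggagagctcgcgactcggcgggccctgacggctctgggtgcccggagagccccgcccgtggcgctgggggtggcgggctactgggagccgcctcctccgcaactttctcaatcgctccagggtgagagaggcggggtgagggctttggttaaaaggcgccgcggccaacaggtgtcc
Gjb1, chrX:101383482-101383731, plus strand: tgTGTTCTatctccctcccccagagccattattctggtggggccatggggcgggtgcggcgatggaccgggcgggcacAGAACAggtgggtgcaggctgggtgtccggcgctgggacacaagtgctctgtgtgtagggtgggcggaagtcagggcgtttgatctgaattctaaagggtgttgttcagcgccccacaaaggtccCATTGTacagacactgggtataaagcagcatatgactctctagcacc

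The RefSeq table matched 6 of the 7 genes and held 4 start sites for Gjb1; Gjc1 had no entry. The Gjb1 window above held 2 matches to the receptor motif and 1 to the SOX core. Another Gjb1 window, starting at 101376126, also held 2 receptor matches, and the window at 101376985 held 1 HNF1 match. No match was found in the single window searched for each of Panx1, Gja1, Gja4, Gja5 and Gjb2, which leaves sequence further upstream unsearched. Among 32851 promoters of the same length, 16.1% held the receptor motif, 6.43% the HNF1 motif and 10.7% the SOX core. These shares are for 1 window, whereas Gjb1 was searched in 4.

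Of 76774 deposited barcodes, 60561 had at least 170 genes and 500 UMIs, at most 50% mitochondrial UMIs and at most 5% haemoglobin UMIs, and 55630 remained after doublets were removed. Libraries held 93172739 to 137819127 UMIs, with a median of 4845 to 9340.5 UMIs a barcode before doublets were removed. Barcode sequences shared by more than 1 library numbered 699. A cluster of 4512 barcodes with a median of 674 UMIs, and one of 636 cells of which 615 came from DOCA-salt 2 (6.4% of its cells), were among those given no cell type, which numbered 411 to 1682 a Sham mouse and 465 to 1462 a DOCA-salt mouse. Cell types were named from marker genes, so that each name below stands for cells like that type, and proximal tubule cells numbered 4640 to 5771 a Sham mouse and 4591 to 5022 a DOCA-salt mouse. Macrophages numbered 120 to 142 a Sham mouse and 393 to 551 a DOCA-salt mouse, and fibroblasts 5 to 21 and 153 to 207, whereas B cells numbered 43 to 58 and 13 to 30. The summed level of 13 fibroblast markers was 18.9 to 65.0 CPM, that is UMIs for each 1000000 UMIs of the same cells, in Sham and 376 to 636 in DOCA-salt kidneys.

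In whole kidneys, that is all kept cells of a mouse summed, Panx1, Gja1 and Gjc1 rose and Gjb2 fell, while Gja4, Gja5 and Gjb1 did not pass the test. Of the 7 members 4 were called at an adjusted p of 0.05 (edgeR quasi-likelihood test, Benjamini-Hochberg over all genes), beside 17.2% of all 19658 genes tested. The same 4 members did not overlap between groups, beside 37% of genes with a mean of at least 0.5 CPM. The median change of the members was 0.28 on the log2 scale and that of all genes -0.02. In these sums, fewer cells of a type and less RNA per cell cannot be told apart.

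Panx1 stood at 0.940, 1.27 and 0.799 CPM in the Sham kidneys and 2.48, 2.25 and 3.68 CPM in the DOCA-salt kidneys, from 85, 86 and 52 against 227, 232 and 262 UMIs. Every DOCA-salt mouse lay above every Sham mouse, with DOCA-salt 3 the highest. The mean rose from 1.00 ± 0.240 to 2.80 ± 0.767 CPM (SD, n = 3 each), a log2 change of 1.36 (SE 0.25, adjusted p = 0.00836, 95% interval 0.79 to 1.93). It was called in all 15 alternatives run, with log2 changes of 1.14 to 1.54, and one of these left out immune cells, fibroblasts and unnamed cells.

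Gja1, the most widespread connexin of the body, was measured at 3.51, 3.87 and 4.41 CPM in Sham and 6.49, 9.34 and 9.99 CPM in DOCA-salt kidneys. The groups did not overlap, and the log2 change was 1.01 (SE 0.18, adjusted p = 0.00826). Of 20 endothelial markers 19 were higher in DOCA-salt kidneys, with sums of 692 to 823 CPM in Sham and 1108 to 1588 CPM in DOCA-salt mice, and their part in the Gja1 and Gjc1 values was not tested. Gjc1, a slow-conducting connexin of smooth muscle and vessels, was at 5.62, 6.83 and 6.67 CPM in Sham and 9.36, 11.9 and 13.1 CPM in DOCA-salt kidneys. Its log2 change was 0.72 (SE 0.15, adjusted p = 0.0135), and the call was lost without Sham 1, without DOCA-salt 3, or without immune, fibroblast and unnamed cells, where the adjusted p reached 0.0999. Gjb2 fell from 30.9, 36.0 and 31.6 CPM to 24.1, 21.3 and 19.5 CPM. All 3 DOCA-salt values lay below the lowest Sham value, with a log2 change of -0.72 (SE 0.12, adjusted p = 0.00587) that was called in all 15 alternatives. The summed level of 32 proximal tubule markers was also lower in DOCA-salt kidneys, at 20618 to 29941 CPM against 32959 to 37896 CPM, and its part in the Gjb2 result was not tested.

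The remaining members did not pass. Gja4 was at 8.47, 10.3 and 12 CPM in Sham and 13.5, 11.6 and 15.5 CPM in DOCA-salt kidneys, with overlap and a log2 change of 0.28 (adjusted p = 0.296). Gja5 was at 2.71, 3.58 and 3.06 CPM against 4.19, 2.62 and 2.72 CPM, and its estimate of -0.08 (adjusted p = 0.852) changed sign with library-size scaling. Gjb1 was at 14.7, 13.5 and 16.8 CPM against 13.2, 13.7 and 11.8 CPM, a log2 change of -0.33 with an unadjusted p below 0.05 but an adjusted p of 0.116 (0.0457 without Sham 2).

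**Figure D1:**
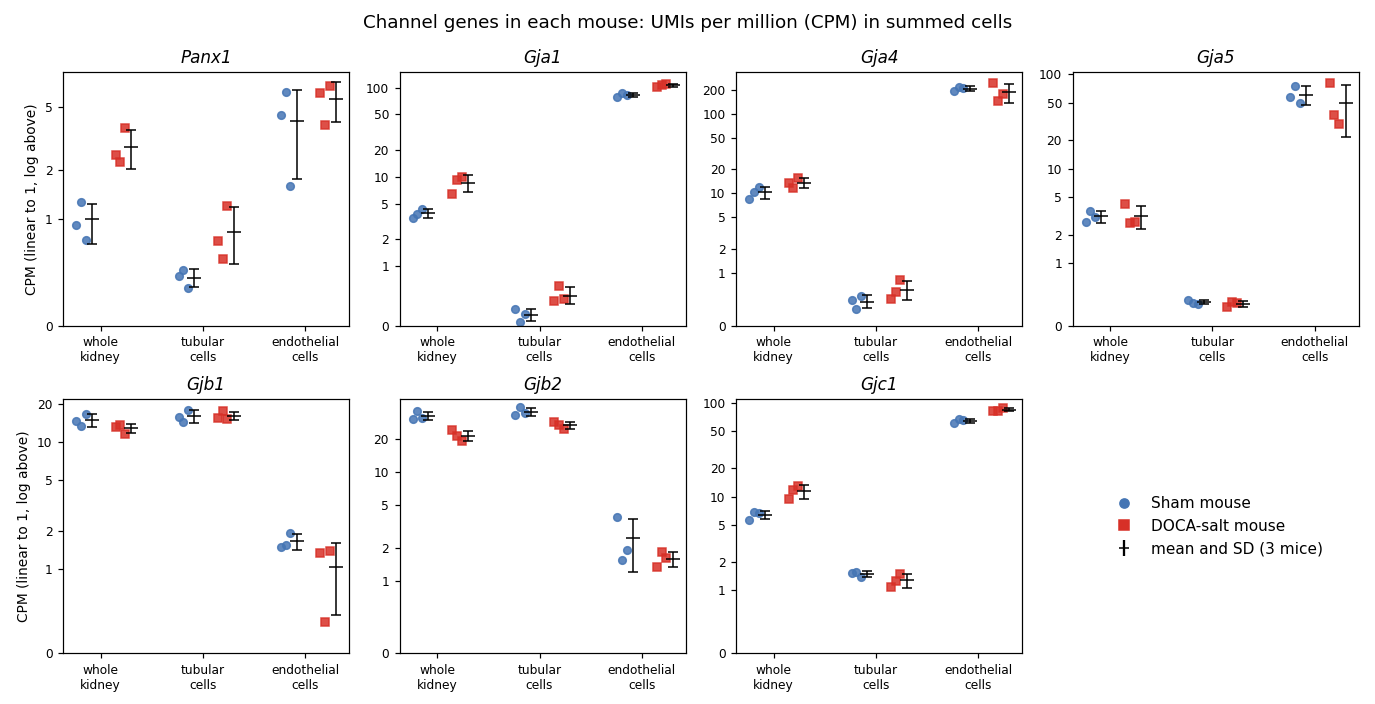
Level of each channel gene in summed cells of each mouse, in CPM on an axis that is linear up to 1 and logarithmic above, for whole kidneys, tubular cells and endothelial cells. Blue circles are Sham and red squares DOCA-salt mice, and black bars give the mean and SD of 3 mice. In whole kidneys the DOCA-salt points of Panx1 (2.25 to 3.68 CPM) lie above the Sham points (0.799 to 1.27 CPM), and those of Gjb2 lie below.

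The members divided the kidney between them. Across 18 cell types with at least 10 cells in every mouse, Gjb2 and Gjb1 were highest in tubule epithelium, Gja1, Gja4 and Gja5 in endothelium, Gjc1 in smooth muscle cells and pericytes, and Panx1 in T cells. Means here are over all 6 mice, and neighbours in an order are said to differ only where their gap passed their spread.

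Panx1 was at 34.4 ± 13.3 CPM in T cells, above B cells at 15.9 ± 9.10 CPM. Monocytes (10.3 CPM), dendritic cells (8.05 CPM), arterial endothelium (5.20 CPM), parietal-like cells (5.11 CPM) and macrophages (4.92 CPM) followed without gaps beyond their spread. Proximal tubule cells held 0.284 CPM. In T cells it rested on 79 UMIs from 6 mice. Fibroblasts were not ranked, with 5 to 21 cells a Sham mouse, and held 16.2 CPM from 110 UMIs over all mice pooled.

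Gja4 ran from arterial endothelium (327 ± 70.1 CPM) to smooth muscle and pericytes (186 ± 62.7 CPM), glomerular endothelium (113 ± 43.7 CPM) and capillary endothelium (57.0 ± 34.6 CPM), each step beyond the spread. Gja5 was at 108 ± 37.4 CPM in arterial endothelium, above glomerular endothelium at 29.8 ± 34.6 CPM. Gja1 did not differ between capillary (103 ± 12.6 CPM) and arterial endothelium (99.9 ± 21.4 CPM), and both stood above cycling cells at 12.8 CPM. Smooth muscle cells and pericytes had no Gja1 UMI in any mouse, which allows a level of up to 1.15 CPM over all 6 mice (3 counts, counting error only). In them Gjc1 reached 244 ± 19.0 CPM, above glomerular (112 CPM) and capillary endothelium (96.2 CPM), which did not differ, and above arterial endothelium at 49.2 ± 8.14 CPM. Gja4 was thus found in arterial endothelium and in the class of smooth muscle cells and pericytes, Gja5 and Gja1 were highest in endothelium, and Gjc1 in smooth muscle cells and pericytes. Dissociated cells do not show the position in a vessel wall.

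Gjb2 was at 43.0 ± 6.76 CPM in proximal tubule, above cycling cells at 27.1 CPM and parietal-like cells at 11.3 CPM. If all proximal tubule markers in these classes were carry-over, it would give 18.8 CPM on average in cycling and 8.16 CPM in parietal-like cells. The markers stood at 42.4% and 20.2% of their proximal tubule level there, against 8.96% in T cells. Cycling cells mix lineages, so RNA of their own proximal tubule cells would be counted as carry-over, and the split was not tested. Gjb1 was highest in principal cells of the collecting duct (32.7 ± 3.54 CPM), above proximal tubule (19.1 ± 2.19 CPM). In T cells, which are not a known source of Gjb2, the level was 3.04 CPM, within the 3.89 CPM that proximal tubule carry-over would give.

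**Figure D2:**
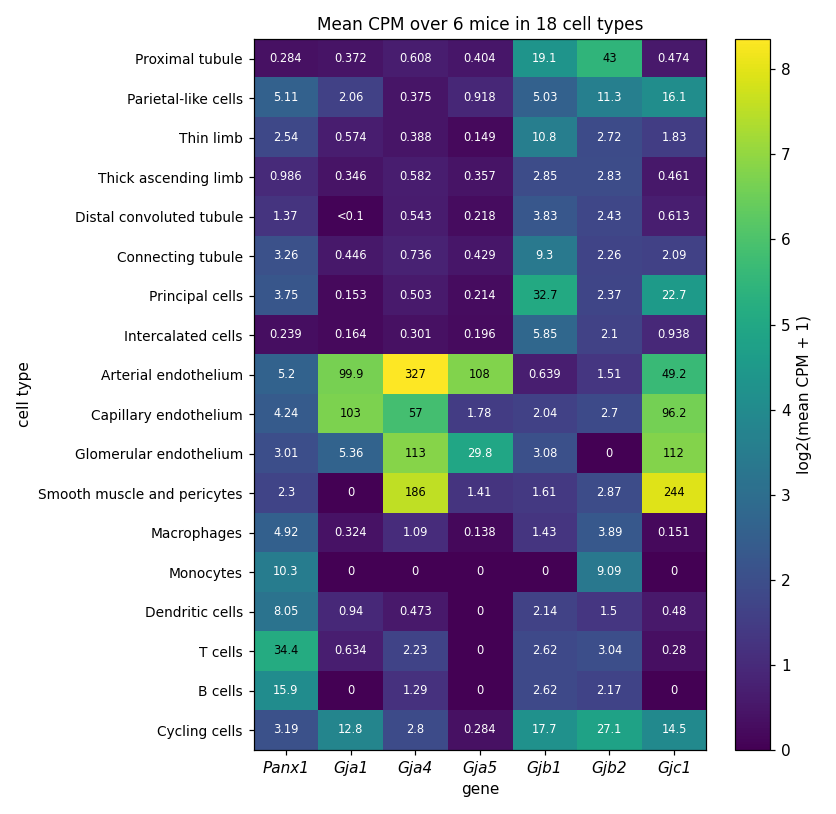
Mean CPM over 6 mice for each channel gene (columns) in 18 cell types (rows), with the value printed in each cell and the colour giving log2(mean CPM + 1). Gjb2 is brightest in proximal tubule (43.0), Gja4 and Gja5 in arterial endothelium (327 and 108), Gjc1 in smooth muscle and pericytes (244) and Panx1 in T cells (34.4).

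The cells that supplied each gene's UMIs differed between groups. For Panx1, tubular cells supplied 39.9% of all UMIs in Sham and 22.5% in DOCA-salt mice. Parietal-like cells supplied 5.38% and 15.3%, fibroblasts 2.24% and 14.6%, macrophages 2.69% and 7.77%, and T cells 10.3% and 7.77%. Fibroblasts held 4, 1 and 0 Panx1 UMIs in the Sham mice and 33, 30 and 42 in the DOCA-salt mice, but with 5 to 21 fibroblasts a Sham mouse the class fell under the minimum of 10 cells in every mouse and was not tested. For Gja1, arterial endothelium supplied 61.8% in Sham and 22.5% in DOCA-salt mice, and capillary endothelium 22.6% and 39.9%. Cells without a type supplied more in DOCA-salt mice, without overlap, for Gja1 (5.92% to 10.6% a mouse in Sham, 16.5% to 23.7% in DOCA-salt), Gja4 (3.13% to 5.25% and 11.3% to 19.0%) and Gjc1 (9.45% to 9.91% and 17.9% to 22.8%). Among them were endothelial clusters 5 and 6, with 25 and 23 Gja1 UMIs in Sham and 93 and 195 in DOCA-salt mice. A cluster found among fibroblasts and smooth muscle cells held 0 and 126 Gjc1 UMIs. The shares of named endothelium and stroma thus depend on which clusters were named. For Gjc1, fibroblasts supplied 0.569% and 13.1%, from 8 and 394 UMIs. Gjb2 came almost wholly from proximal tubule, 93.7% in Sham and 88.2% in DOCA-salt mice. Shares are of UMIs pooled over 3 mice.

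**Figure D3:**
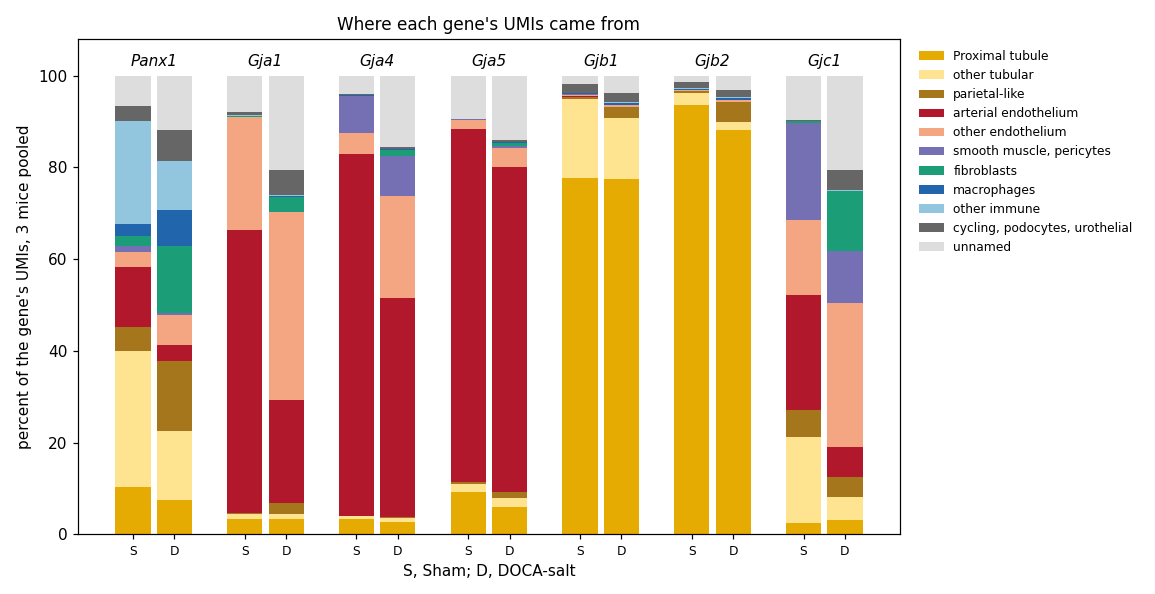
Share of each gene's UMIs (percent, 3 mice pooled) by cell class in Sham (S) and DOCA-salt (D) kidneys. The Panx1 share from fibroblasts is 2.24% in Sham and 14.6% in DOCA-salt kidneys, and the Gja4 share from arterial endothelium is 78.9% and 47.6%.

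Depth of sequencing differed between mice, so the share of cells with at least 1 UMI was also compared after each cell was thinned to 1000 UMIs. This left out 4620 Sham and 3867 DOCA-salt cells. Panx1 was then seen in 0.147 ± 0.0580% of Sham and 0.290 ± 0.0656% of DOCA-salt cells, with no overlap (exact permutation test, two-sided p = 0.1, the smallest that 3 against 3 mice allow). Unthinned, the shares were 0.781% and 2.25%, with median depths of 6495 and 7930.5 UMIs. In proximal tubule cells, where the level was near the lowest, the thinned shares were 0.0138% and 0.0320%. By the same exact test Gja1 gave 0.486% and 0.793% (p = 0.1), Gjb2 2.73% and 1.96% (p = 0.1), and Gjc1 0.904% and 1.19% (p = 0.2). The thinned shares of Gja4 (0.997% and 1.23%), Gja5 (0.278% and 0.251%) and Gjb1 (1.36% and 1.25%) overlapped between groups as well, with exact p of 0.2, 0.5 and 0.4.

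In tubular cells, all nephron segments summed without parietal-like cells, the whole-kidney rise of Panx1 was not called. Panx1 was at 0.467, 0.520 and 0.353 CPM in Sham and 0.794, 0.626 and 1.21 CPM in DOCA-salt mice, from 38, 31 and 20 against 58, 44 and 60 UMIs. No values overlapped, and the log2 change was 0.91 (SE 0.30, 95% interval 0.23 to 1.58), with an unadjusted p below 0.05 and an adjusted p of 0.110. It passed in 2 of 17 alternatives, the finer clustering and the naming of cells from markers per barcode (lowest adjusted p = 0.0184). Markers of other cell types were higher in the same sums without overlap: the 12 macrophage markers stood at 180.0 to 221 CPM in Sham and 337 to 488 CPM in DOCA-salt mice, the 20 endothelial markers at 53.3 to 82.7 and 103 to 153 CPM (20 of 20 higher), and the 13 fibroblast markers at 3.62 to 13.4 and 41.3 to 66.7 CPM. Their part in the Panx1 and Gja1 values of tubular cells was not tested. Of the 7 members, 1 was called in tubular cells, beside 7.19% of 18043 genes.

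That member was Gjb2, at 33.3, 39.3 and 34.8 CPM in Sham and 28.7, 26.9 and 24.8 CPM in DOCA-salt tubular cells. The groups did not overlap, and the log2 change was -0.45 (SE 0.11, adjusted p = 0.0398). The call was lost when any 1 mouse other than Sham 2 was left out, where the adjusted p rose to as much as 0.178. The 32 proximal tubule markers were lower in the same sums, at 26212 to 35996 CPM against 36299 to 40767 CPM, and their part in this fall was not tested. Gjb1, the other epithelial connexin, stood at 16.1 ± 1.86 and 16.2 ± 1.20 CPM, with a log2 change of -0.03 (95% interval -0.30 to 0.24). Gja1 was low, at 0.283, 0.0671 and 0.194 against 0.411, 0.669 and 0.443 CPM (log2 change 1.40, adjusted p = 0.0923). It reached the filter on low counts through its DOCA-salt values, and passed the test without doublet removal and with cell types from markers per barcode (lowest adjusted p = 0.0377).

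In proximal tubule 2 of 7 members were called, beside 9.75% of 16271 genes. Gjb2 was at 44.4, 51.8 and 49.5 CPM in Sham and 39.4, 38.3 and 34.5 CPM in DOCA-salt mice, a log2 change of -0.45 (SE 0.11, adjusted p = 0.0400) that was lost in 9 of 17 alternatives. Gjc1 was at 0.251, 0.157 and 0.315 CPM in Sham and 0.516, 0.742 and 0.863 CPM in DOCA-salt mice, from 15, 7 and 12 against 27, 36 and 30 UMIs. Its log2 change was 1.46 (SE 0.34), and the call was lost in 6 alternatives. Only 2 Sham mice reached the level of the filter on low counts, 0.215 CPM, so Gjc1 met the filter by its DOCA-salt counts but not by its Sham counts alone. Markers of endothelium and fibroblasts moved with it: the 20 endothelial markers summed to 17.8 to 33.7 CPM in Sham and 43.7 to 64.6 CPM in DOCA-salt proximal tubule (19 of 20 higher), and the 13 fibroblast markers to 1.32 to 14.1 and 42.4 to 77.2 CPM (10 of 13 higher). Their part in the result was not tested. Panx1 rested on 14, 5 and 4 against 21, 12 and 21 UMIs in proximal tubule (log2 change 1.28, adjusted p = 0.113), and also reached the filter through its DOCA-salt counts.

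Parietal-like cells, an epithelial class named from parietal epithelium markers, numbered 83 to 113 in Sham and 203 to 275 in DOCA-salt mice, and 2 of the 4 members tested there were called, beside 22.7% of 12070 genes. Gjb2 was at 5.65, 11 and 4.80 CPM in Sham and 15, 17.6 and 13.9 CPM in DOCA-salt mice, a log2 change of 1.16 (SE 0.31, adjusted p = 0.0164). The call was lost without Sham 1 or without Sham 3, where the adjusted p reached 0.0694. Its direction was opposite to that in proximal tubule. The 32 proximal tubule markers were also higher in this class, at 10912 to 12783 CPM against 4846 to 7134 CPM, and the 9 parietal markers were lower, at 2041 to 2399 CPM against 2898 to 3571 CPM. If all these proximal tubule markers were carry-over, it would give 8.16 CPM of Gjb2 on average and at most 13.1 CPM in a mouse, of the 11.3 CPM measured, and the level lay above it in 5 of 6 mice. Markers made by the cells themselves would be counted as carry-over, and the split was not tested. Gjc1 fell in these cells, from 28.3, 25.6 and 16 CPM to 13.0, 7.48 and 6.35 CPM (log2 change -1.32, SE 0.30, adjusted p = 0.00724), but the estimate was 0.32 with finer clustering. Panx1 was at 1.88, 5.12 and 2.40 CPM against 7.6, 6.15 and 7.51 CPM, from 12 and 110 UMIs in all, and just missed the threshold (log2 change 1.18, SE 0.40, adjusted p = 0.0522). It reached the filter through its DOCA-salt counts, and was called without Sham 2 and without the filter (lowest adjusted p = 0.0272).

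Along the distal nephron, 1 member was called in each of 2 segments. In principal cells, which carry the epithelial sodium channel and the mineralocorticoid receptor, Gjc1 fell from 34.7, 30.2 and 24.3 CPM to 14.0, 16.4 and 16.6 CPM. No values overlapped (log2 change -0.88, SE 0.20, adjusted p = 0.0238), but the call was lost in 6 of 17 alternatives. In the same cells the 6 connecting tubule markers went from 1042 to 1273 CPM in Sham up to 1561 to 2272 CPM in DOCA-salt mice, and the 10 principal cell markers from 20576 to 22346 CPM down to 18067 to 20207 CPM; their part in the Gjc1 value was not tested. The share of genes called in principal cells was 7.17%. Gjb1 did not pass there, at 34.1 ± 1.53 against 31.2 ± 4.78 CPM (log2 change -0.08, 95% interval -0.46 to 0.31).

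In the connecting tubule Gjb1 fell from 11.1, 11.4 and 17.6 CPM to 5.86, 7.43 and 2.46 CPM (log2 change -1.41, SE 0.40), where 24% of all genes were called. With 1 DOCA-salt mouse at the filter's level of 6.73 CPM, Gjb1 met the filter by its Sham counts but not by its DOCA-salt counts alone. The call was lost in 5 alternatives, and the 10 principal cell markers were also lower in this class, at 2237 to 2629 CPM against 6493 to 8424 CPM. The distal convoluted tubule had 0, 0 and 0 Panx1 UMIs in Sham and 11, 8 and 4 in DOCA-salt mice, too few for the test.

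In the endothelial class none of the 5 members tested was called by edgeR, where 8.09% of 12024 genes were. An unadjusted p below 0.05 was seen in 2 members, beside 1370 higher and 1252 lower among all genes. This class leaves out the endothelial clusters that best matched other cell types, the largest of which were 5 and 6. It keeps clusters 7 and 11, of 159 and 77 barcodes with few UMIs, which were given no sub-class. Gja1 was at 78.7, 87.1 and 83.0 CPM in Sham and 101, 107 and 109 CPM in DOCA-salt mice (log2 change 0.36, SE 0.12, adjusted p = 0.0827). Gjc1 was at 60.3, 66.7 and 65.6 CPM against 82.3, 82.5 and 87.6 CPM (log2 change 0.40, SE 0.12, adjusted p = 0.0632). In both genes the groups did not overlap, and the share of all genes without overlap was not counted in this class. Without Sham 2 both passed the threshold. Gja4, at 193, 221 and 210 against 244, 145 and 176 CPM, and Gja5, at 57.0, 76.0 and 49.2 against 80.9, 36.9 and 30.0 CPM, overlapped widely. Without DOCA-salt 1, however, the Gja5 estimate went from -0.30 to -0.85 and passed as a fall (adjusted p = 0.0328).

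The make-up of the endothelial class differed between groups, and its part in the values above was not tested. Shares are of this class, without the clusters that best matched other cell types. The largest of these were cluster 5 (72 Sham and 171 DOCA-salt cells) and cluster 6 (24 and 142 cells). In clusters 5 and 6 the capillary marker Plvap was at 3031 and 1290 CPM and Gja1 at 74.7 and 135 CPM. Arterial endothelium made up 48.1 ± 5.30% of endothelial cells in Sham and 22.6 ± 6.59% in DOCA-salt mice. Capillary endothelium made up 40.9 ± 6.48% and 63.5 ± 3.07%. By UMIs the arterial share went from 71.2% to 33.4% and the capillary share from 21.4% to 61.1%. The connexins were therefore also compared within each class.

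Within capillary endothelium Gja4 rose. It was at 26.9, 36.8 and 22.1 CPM in Sham and 78.3, 67.0 and 111 CPM in DOCA-salt mice, from 56 and 711 UMIs. The lowest DOCA-salt mouse lay above the highest Sham mouse, and the log2 change was 1.53 (SE 0.26, 95% interval 0.98 to 2.07, adjusted p = 0.00214). Of the 3 members tested in this class only Gja4 was called, beside 8.14% of 9782 genes, and it was called in 16 of 17 alternatives, the exception being no doublet removal (log2 change 0.96, adjusted p = 0.0634). Gja1 was at 98.7, 118 and 84.4 against 97.4, 116 and 106 CPM, with a log2 change of 0.04 (95% interval -0.28 to 0.37). Gjc1 was at 80.7, 89.0 and 88.4 against 121, 93.2 and 105 CPM (log2 change 0.27, adjusted p = 0.364).

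Different clusters held most of the capillary class in the groups. Sham cells lay mostly in cluster 1, led by Npr3 and Esm1 (500 Sham and 98 DOCA-salt cells), and DOCA-salt cells in cluster 0, led by Aplnr (27 and 638 cells), and cluster 4, led by Igfbp3 (29 and 253 cells). Pooled over mice, Gja4 in cluster 1 was at 24.2 CPM in Sham and 52.2 CPM in DOCA-salt cells, from 39 and 22 UMIs, and in cluster 0 at 24.9 and 36.5 CPM, from 5 and 228 UMIs. Cluster 4 held most of the Gja4 UMIs, with 104 CPM in Sham (12 UMIs) and 271 CPM in DOCA-salt cells (461 UMIs). The Sham values of clusters 0 and 4 thus rest on few UMIs. Sox17, a marker of arterial endothelium, was at 501 CPM in cluster 4, against 104 CPM in cluster 0 and 107 CPM in cluster 1. In the arterial clusters 2, 3 and 8 Sox17 was at 897, 971 and 514 CPM. Fbln5, another arterial marker, was at 116 CPM in cluster 4, 11.6 and 4.91 CPM in clusters 0 and 1, and 364, 407 and 2337 CPM in clusters 2, 3 and 8. The capillary marker Plvap was at 1332 CPM in cluster 4 and at 231, 180 and 21.0 CPM in clusters 2, 3 and 8. The part of arterial-like cells in the capillary Gja4 value was not tested. Endothelial cluster 5 (72 Sham and 171 DOCA-salt cells), with Plvap at 3031 CPM and Gja4 at 2.53 CPM, was given no type and lies outside the capillary class. The same holds for cluster 6 (24 and 142 cells), with Plvap at 1290 CPM and Gja4 at 88.0 CPM.

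In arterial endothelium none of the 4 members tested was called, and only 0.251% of 10367 genes were. An unadjusted p below 0.05 was seen in 3 members, beside 484 higher and 524 lower among all genes. Gja5, the connexin of arterial endothelium, was at 78.3, 108 and 65.0 CPM in Sham and 173, 118 and 107 CPM in DOCA-salt mice (log2 change 0.66, SE 0.20, 95% interval 0.23 to 1.09, adjusted p = 0.197). It was called without Sham 2 (adjusted p = 0.00990) and without the filter on low counts (adjusted p = 0.0117), and its estimate ran from 0.38 to 0.88 over the alternatives. Gja4 was at 254, 308 and 269 against 448, 327 and 357 CPM (log2 change 0.42, adjusted p = 0.327). Gja1 was at 77.8, 80.0 and 90.0 against 112, 106 and 133 CPM (log2 change 0.47, adjusted p = 0.220). In Gja4 and Gja1 every DOCA-salt mouse lay above every Sham mouse, and in Gja5 DOCA-salt 3 lay just below Sham 2. The share of all genes without overlap was not counted in this class. Gjc1 was at 47.0, 56.6 and 59.8 against 37.0, 49.0 and 45.9 CPM (log2 change -0.34, adjusted p = 0.578).

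The arterial class was not uniform for these genes. Gja5 was at 153 CPM in cluster 2, marked by Slc14a1, the urea transporter of the descending vasa recta, and at 297 CPM in cluster 8, marked by Gkn3 and Fbln5. It was at 2.26 CPM in cluster 3, marked by Calca. In the same clusters Gja4 was at 307, 659 and 226 CPM. Thus Gja5 was nearly missing in 1 of these clusters, whereas Gja4 was found in all 3. The remaining cluster of the class held 9 cells.

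**Figure D4:**
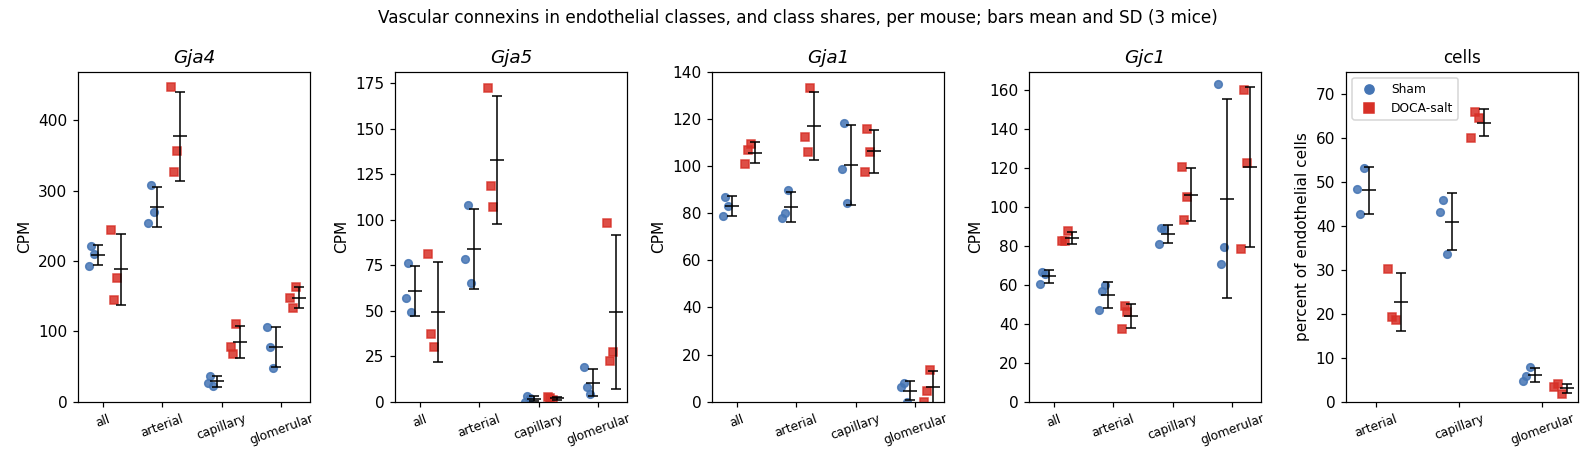
CPM of Gja4, Gja5, Gja1 and Gjc1 in all, arterial, capillary and glomerular endothelial cells of each mouse, and the percent of endothelial cells in each class (right). Endothelial clusters that best matched other cell types, such as 5 and 6, are left out. Blue circles are Sham and red squares DOCA-salt mice, and bars give the mean and SD of 3 mice. Gja4 in capillary endothelium is at 22.1 to 36.8 CPM in Sham and 67.0 to 111 CPM in DOCA-salt mice, while the arterial share of cells is lower in every DOCA-salt mouse.

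Smooth muscle cells and pericytes, where 0.997% of 6221 genes were called, gave no call among the 2 members tested. Gja4 was at 104, 191 and 125 CPM in Sham and 270, 196 and 231 CPM in DOCA-salt mice, without overlap (log2 change 0.67, SE 0.22, adjusted p = 0.217), a gene that passed without Sham 2 (adjusted p = 0.0138). Gjc1 was at 226, 257 and 219 against 252, 269 and 243 CPM, with a log2 change of 0.07 (95% interval -0.31 to 0.45). Pooled, the largest cluster of the class held 213 CPM of Gja4 and 304 CPM of Gjc1 at 303 CPM of Ren1, the gene of renin, and the cluster richest in Ren1 (1546 CPM) held 153 and 177 CPM.

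In macrophages none of the 7 members passed the filter on low counts, so none was tested there; 4.98% of 8801 genes were called. Panx1 was seen with 5, 0 and 1 UMIs in Sham and 13, 19 and 24 UMIs in DOCA-salt macrophages, at 7.74, 0 and 1.96 against 6.53, 5.52 and 7.79 CPM. The range in Sham mice covered that of the DOCA-salt mice apart from DOCA-salt 3. In T cells Panx1 was at 13.7, 54.9 and 36.2 against 38.1, 29.8 and 33.6 CPM (log2 change -0.04, 95% interval -0.97 to 0.88).

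Cycling cells, a class set by proliferation genes that mixes lineages, had 4 members past the filter on low counts, where 21.1% of 10440 genes were called. For Gja1 and Gjc1 none of the Sham mice reached the level of that filter, so both had to differ to be tested, and their values are given as a description. Gja1 was at 3.62, 1.29 and 3.41 CPM in Sham and 18.6, 33.3 and 16.7 CPM in DOCA-salt mice. Gjc1 was at 0, 0 and 6.82 against 25.8, 29.3 and 25.4 CPM, from 2 and 130 UMIs. Gjb2 fell from 31.4, 43.8 and 34.1 CPM to 13.8, 17.7 and 21.9 CPM (log2 change -1.26, adjusted p = 0.00677), a call lost in 2 of 17 alternatives (adjusted p up to 0.0827). Gjb1 fell as well (log2 change -1.16, adjusted p = 0.0254), a call lost in 10 of 17 alternatives. The lineages of these cells differed: 20 of 20 endothelial markers were higher, summing to 13.5 to 467 CPM in Sham and 2634 to 3300 CPM in DOCA-salt mice, and proximal tubule markers went from 22045 to 38220 CPM down to 11833 to 12976 CPM. The part of this shift in these values was not tested.

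Over all 19 classes tested, 40 of 133 gene and class pairs passed the filter, and 11 were called, 5 higher and 6 lower, in 6 classes. Of these 3 higher calls reached the filter through DOCA-salt counts alone and 1 lower call through Sham counts alone, which leaves 7 whose level passed in each group. Over all genes and the same classes 8.16% of tests were called. An unadjusted p below 0.05 was seen in 21 pairs, and such values were also common among all genes. They were seen in 2371 higher and 1823 lower of 16271 genes in proximal tubule, and in 484 and 524 of 10367 in arterial endothelium. In 5 classes no member could be tested. Endothelial cells entered the 19 classes both together and by sub-class.

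**Figure D5:**
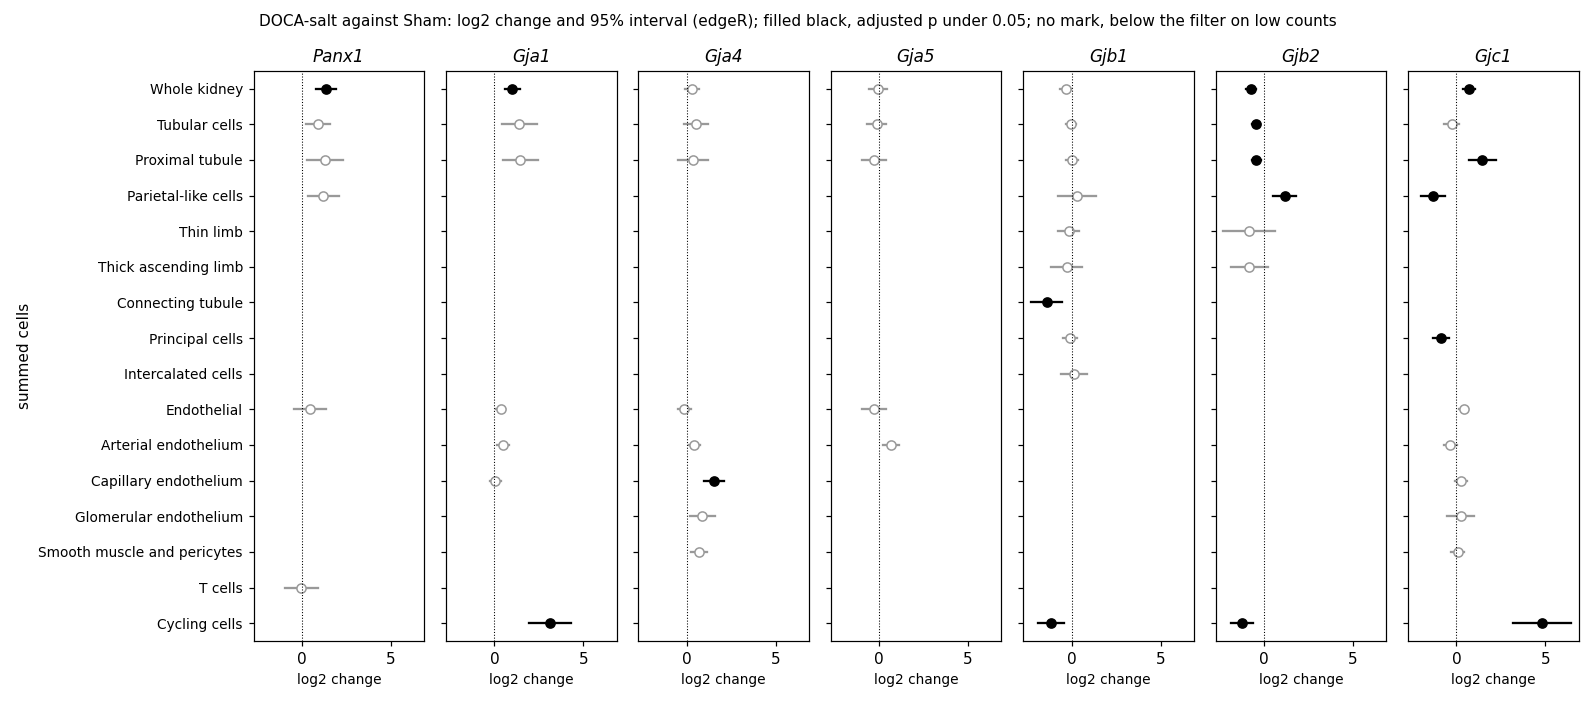
Log2 change of each channel gene, DOCA-salt against Sham, with its 95% interval from edgeR, for whole kidneys, tubular cells and each class in which a member was tested. Black points have an adjusted p under 0.05, open points do not, and a missing point was below the filter on low counts. Gjc1 lies above 0 in proximal tubule (1.46) and below 0 in principal (-0.88) and parietal-like cells (-1.32).

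Differences between classes were tested as an interaction, with the mouse as a block. The Panx1 change did not differ between tubular and endothelial cells (endothelial minus tubular -0.40, SE 0.46, adjusted p = 0.674) or between tubular cells and macrophages (macrophages minus tubular -0.05, SE 0.75, adjusted p = 1); these errors are wide, and the p-values do not show that the changes were alike. The Gjc1 change was larger in endothelial than in tubular cells by 0.69 (SE 0.16, adjusted p = 0.0120), a call lost without Sham 1 (adjusted p = 0.0632) and without DOCA-salt 2 (adjusted p = 0.0524). These tests were planned for Panx1, and the Gjc1 value was read from the same fit. In single edgeR tests neither Gjc1 change was called, at 0.40 in endothelial (adjusted p = 0.0632) and -0.27 in tubular cells (adjusted p = 0.426). The capillary share of endothelial UMIs went from 21.4% in Sham to 61.1% in DOCA-salt mice. The part of the make-up of both sums in this difference was not tested. Shares of genes called were 8.27% for endothelial and 5.46% for macrophage against tubular cells.

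Further pairs of classes were compared after the values above had been seen, so the p-values below are for pairs picked from the same data. The Gjc1 change was larger in proximal tubule than in principal cells by 2.33 (SE 0.41, adjusted p = 0.00175), where 7.75% of genes differed, and it was called in all 14 alternatives run. In proximal tubule Gjc1 was at only 0.157 to 0.863 CPM a mouse, and endothelial and fibroblast markers rose in the same sums. The part of these markers in this and the next Gjc1 difference was not tested. Against proximal tubule, the change in parietal-like cells was larger by 1.68 for Gjb2 (SE 0.26, adjusted p = 6.67e-05) and stood at -2.75 for Gjc1 (SE 0.52, adjusted p = 0.00047), where 24.8% of genes differed. At Leiden resolution 2 neither was called, with differences of 0.40 for Gjb2 (adjusted p = 0.840) and -0.82 for Gjc1 (adjusted p = 0.517), and both were called in the other 12 alternatives. Proximal tubule markers were also higher in the parietal-like cells of DOCA-salt mice, and their part in the Gjb2 difference was not tested. The Gja4 change was larger in capillary than in arterial endothelium by 1.11 (SE 0.24, adjusted p = 0.00286), where 3.09% of genes differed. That call was lost in 3 of 14 alternatives, with 0.55 without doublet removal (adjusted p = 0.299), 0.65 with cell types from markers per barcode and 0.63 with another random start of the clustering. Cluster 4 of the capillary class, with the arterial marker Sox17 at 501 CPM, held 12 Sham and 461 DOCA-salt Gja4 UMIs. Its part in this difference was not tested.

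Of 16 other pannexins and connexins, 5 could be tested in whole kidneys, 1 of them through its DOCA-salt counts alone, and 4 rose, where 17.2% of all genes were called in either direction. Gjb5, a connexin of stratified epithelia, was at 0.310, 0.236 and 0.200 CPM in Sham and 0.536, 0.833 and 0.828 CPM in DOCA-salt kidneys, from 57 and 194 UMIs. The groups did not overlap, and the log2 change was 1.41 (SE 0.28, adjusted p = 0.0110). Of the Gjb5 UMIs 47.0% were in parietal-like cells, 17 in Sham and 101 in DOCA-salt mice, and 25.5% were in thin limb. None of the list could be tested in endothelial cells or macrophages.

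Of 16 other routes of ATP release, 13 were tested in whole kidneys, and 6 rose and none fell, beside the same 17.2%. Among them Calhm5 (2.08), Calhm6 (1.87) and Calhm2 (1.26), of the calcium homeostasis modulator family of large-pore channels, and Ankh (0.85, listed as Ank), a transporter that exports ATP and pyrophosphate, had the largest log2 changes. Calhm6 UMIs were mostly in macrophages (59.8%), and the largest share of Calhm5 UMIs was in fibroblasts (38.7%). Without immune, fibroblast and unnamed cells the 3 Calhm calls were lost, with log2 changes of 0.82 for Calhm5, 1.66 for Calhm6 (adjusted p = 0.0528) and 0.69 for Calhm2, and the Ankh estimate was -0.09. In tubular cells none of 13 was called by edgeR, beside 7.19% of all genes. An unadjusted p below 0.05 was seen in 4 of them, beside 2265 higher and 1766 lower of 18043 genes. In macrophages none of 8 was called, beside 4.98%. There 2 had an unadjusted p below 0.05, beside 799 higher and 808 lower of 8801 genes. In endothelial cells 2 of 8 were called, beside 8.09%. There Lrrc8a, a subunit of volume-regulated anion channels, rose from 91.5 ± 3.32 to 122 ± 4.46 CPM (log2 change 0.43, adjusted p = 0.0375, lost in 9 of 17 alternatives), and Slco2a1, a prostaglandin transporter linked to a maxi-anion channel, fell from 191 ± 54.1 to 73.3 ± 25.7 CPM (log2 change -1.39, adjusted p = 0.00765). Arterial endothelium held 1511 Sham and 622 DOCA-salt UMIs of Slco2a1, while its share of endothelial UMIs went from 71.2% to 33.4%, and the part of this shift in the fall was not tested.

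Of 15 partners and regulators of these channels, all 15 were tested in whole kidneys, 4 rose and 1 fell, beside the same 17.2%. P2rx7, an ion channel gated by extracellular ATP, went from 1.64, 1.60 and 1.81 CPM to 4.55, 5.84 and 8.09 CPM (log2 change 1.74, adjusted p = 0.00179). Macrophages held 31.6% of its UMIs, the 12 macrophage markers stood at 322 to 397 CPM in Sham and 1289 to 2019 CPM in DOCA-salt kidneys, and without immune, fibroblast and unnamed cells the P2rx7 change was 0.86 (adjusted p = 0.0325). Dpysl2 (0.89, and 0.51 without those cells) and Dbn1 (0.73), a cytoskeletal partner of Cx43, rose, and Nr3c2, the mineralocorticoid receptor, fell by 0.65 on the log2 scale, a call lost with the replicate number as a block and without DOCA-salt 3 (adjusted p up to 0.0541). In macrophages P2rx7 was at 41.8, 26.3 and 21.6 CPM in Sham and 65.8, 60.1 and 75.6 CPM in DOCA-salt mice (log2 change 1.02, SE 0.23, adjusted p = 0.0166), the 1 call among 10 tested, beside 4.98% of all genes, and it was lost without Sham 3 or without DOCA-salt 3. The macrophage markers rose in the same cells, at 16418 to 20856 CPM in Sham and 31256 to 39902 CPM in DOCA-salt mice. One cluster of the class, led by Mmp13, held 94, 81 and 96 of the macrophages of the Sham mice and 17, 21 and 34 of those of the DOCA-salt mice, and its part in the P2rx7 value was not tested. In tubular cells 2 of 15 were called, beside 7.19% of all genes: Dbn1 rose (0.62), a call lost in 4 of 17 alternatives (adjusted p up to 0.0987), and Cav1, the caveolar protein, fell by 0.97 on the log2 scale. Principal cells held 2271 Sham and 1364 DOCA-salt UMIs of Cav1 and connecting tubule 1710 and 547, while these cells numbered 225 to 268 and 136 to 216 a Sham mouse against 147 to 192 and 93 to 111 a DOCA-salt mouse; their part in the fall was not tested. In endothelial cells 3 of 14 were called, beside 8.09% of all genes. There Nr3c2 fell (log2 change -0.99, adjusted p = 0.000993), and so did the calcium channel Trpv4 (log2 change -0.76, adjusted p = 0.0165), a call lost in 4 alternatives. In the same sums the arterial share of UMIs went from 71.2% to 33.4% and the capillary share from 21.4% to 61.1%. The part of this shift in both falls was not tested.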

How the data were processed

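Kidneys of 6 mice were digested with collagenase, and whole cells were profiled with 3′ single-cell RNA-seq, 1 library a mouse. The authors deposited filtered matrices of UMI counts for each gene in each barcode. The reads had been run through Cell Ranger against GRCm39 (version 9.0.0 by the submitters' processing notes, 8.0.1 by the matrix headers). Strand counting and reference annotation are not given in the sources used here. The notes also name Seurat 4.0.0 and R 4.0.3. The authors' doublet caller and integration were not rerun.

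Barcodes with at least 170 genes and 500 UMIs, at most 50% mitochondrial and at most 5% haemoglobin UMIs were kept, and Scrublet scores were used to remove 0.8% of barcodes per 1000 cells as doublets. Cells were clustered with scanpy 1.11.5 (2000 variable genes without the channel genes, 30 principal components, 15 neighbours, Leiden resolution 1) and named from marker lists, so each class name stands for cells like that type by these markers. A cluster stayed unnamed if fewer than 3 markers of its best class were detected, if its 10 leading genes held more markers of another class than of its own, or if its UMI count was low and none of its own markers led it or fewer than 5 were detected, a rule set after the clusters were seen. Among endothelial clusters, those that best matched a class other than endothelium were also left without a type. Those that best matched a class of endothelium stayed in the endothelial sums, even where they were given no sub-class. Counts were summed per mouse and class with at least 10 cells in every mouse, and 3 Sham were compared with 3 DOCA-salt mice with the edgeR 4.0.16 quasi-likelihood test (R 4.3.3, filterByExpr, TMM, two-sided, Benjamini-Hochberg over all genes, threshold 0.05). CPM are UMIs per 1000000 UMIs of the same cells. Differences between classes were tested as an interaction with the mouse as a block. Intervals are 95% and come from the edgeR fit, so they include variation between mice, whereas limits from counts cover counting error only. Carry-over of proximal tubule RNA was estimated per mouse from proximal tubule markers found in each class, so markers made by a class itself count as carry-over.

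In simulated whole kidneys, with 200 changed genes among 19658, 61% of 2-fold and 95% of 4-fold changes were recovered, and 11 of 167 calls were false. False calls were 18 of 181 in simulated tubular cells, 20 of 189 in endothelial cells and 11 of 160 in macrophages. Alternatives were scaling by library size alone, DESeq2 1.42.0 as the test or only for its size factors, keeping genes of low count, the replicate number as a block, leaving out each mouse, at most 20% mitochondrial UMIs, at least 1000 UMIs a cell, no doublet removal, Leiden resolution 2 and cell types from markers per barcode. Chosen after seeing the data were whole kidneys without immune, fibroblast and unnamed cells, another random start of the clustering, and the comparisons of proximal tubule with principal and parietal-like cells and of arterial with capillary endothelium, under the same alternatives except DESeq2 and the replicate block.

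The 7 members and the 3 gene lists were chosen with earlier results of these data known. The 7 members were named in every comparison, and of each list the genes past the threshold, at most the 4 with the largest change per comparison; some of these are not reported here. The labels give 3 mice per group with no repeated samples.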

Additional observations from a re-analysis of the deposited data

Results flagged for a closer look

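In 5 cases the change of a channel gene differed between cell classes by a test of the difference itself. The Gjc1 change was higher in endothelial than in tubular cells by 0.69 on the log2 scale (SE 0.16, edgeR adjusted p = 0.0120), a call lost without Sham 1 (adjusted p = 0.0632) and without DOCA-salt 2 (adjusted p = 0.0524). Neither change was called by itself, at 0.40 in endothelial and -0.27 in tubular cells. Both sums mix classes whose shares differed between groups, and the part of this make-up was not tested. The Gjc1 change was higher in proximal tubule than in principal cells by 2.33 (SE 0.41, adjusted p = 0.00175). Gjc1 fell from 29.7 ± 5.24 to 15.6 ± 1.41 CPM in principal cells (SD, 3 mice each) and stood at 0.241 and 0.707 CPM in proximal tubule. Endothelial and fibroblast markers also rose in the proximal tubule sums, and their part in this and the next Gjc1 difference was not tested. The Gjc1 change in parietal-like cells minus that in proximal tubule was -2.75 (SE 0.52, adjusted p = 0.00047), and -0.82 at Leiden resolution 2 (adjusted p = 0.517). The Gjb2 change was higher in parietal-like cells than in proximal tubule by 1.68 (SE 0.26, adjusted p = 6.67e-05), but by 0.40 at Leiden resolution 2 (adjusted p = 0.840). Proximal tubule markers rose in parietal-like cells too. If all were carry-over, they would give 8.16 of the 11.3 CPM of Gjb2 there, and their part in this difference was not tested. The Gja4 change was higher in capillary than in arterial endothelium by 1.11 (SE 0.24, adjusted p = 0.00286), with means of 28.6 and 85.4 CPM in capillary and 277 and 377 CPM in arterial endothelium, a call lost in 3 of 14 alternatives (0.55 to 0.65, adjusted p up to 0.299). Capillary cluster 4, with the arterial marker Sox17 at 501 CPM, held 461 of the DOCA-salt Gja4 UMIs, and its part was not tested. The first came from a comparison of classes planned for Panx1, with the Gjc1 value read from the same fit. The other 4 were run after the values in each class had been seen, so their p-values are for pairs picked from the same data.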

How the results depend on the processing

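The whole-kidney count of 4 channel genes was within 1.5 times of itself in all alternatives. The tubular count of 1 was 0 with the replicate number as a block, 2 without doublet removal, 2 at Leiden resolution 2, 3 with cell types from markers per barcode, and 0 to 1 when a mouse was left out. The proximal tubule count of 2 was 1 with library size only, 0 with the block, 0 at Leiden resolution 2, 0 with markers per barcode, 1 with another random start, and 0 to 2 when a mouse was left out. The endothelial count of 0 was 0 to 2 when a mouse was left out. The count of 11 pairs called was 18 with no filter, 6 with the block, 6 without doublet removal, 6 at Leiden resolution 2, 5 with markers per barcode, and 6 to 17 when a mouse was left out (17 without Sham 2, 6 without DOCA-salt 3). Same-numbered mice did not deviate together (whole kidney correlations of -0.107, -0.766 and -0.257), so the numbers give no pairing.

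Estimates near 0 changed sign, none of them called. The Panx1 difference between macrophages and tubular cells ran from -0.656 to 1.72 when a mouse was left out. The thinned Gjb1 share difference was 0.131 percentage points without thinning. Gja5 in whole kidneys was 0.0314 with library size only, 0.00597 without immune, fibroblast and unnamed cells, and -0.349 to 0.063 when a mouse was left out. Gjb1 in tubular cells was 0.0113 with library size only, 0.0289 at 20% mitochondrial UMIs, and -0.102 to 0.074 when a mouse was left out, and in proximal tubule -0.0613 to 0.167. Gja4 in endothelial cells was -0.378 to 0.0307 when a mouse was left out. Gja1 in capillary endothelium was -0.159 without doublet removal, -0.0544 at Leiden resolution 2, -0.155 with markers per barcode, -0.0127 with another random start, and -0.0388 to 0.174 when a mouse was left out. Gjc1 in smooth muscle was -0.103 with markers per barcode. Among called results, Gjc1 in parietal-like cells was 0.322 at Leiden resolution 2 and Ankh in whole kidneys -0.0909 without immune, fibroblast and unnamed cells. The causes were not tested. Panx1 rested on 944 UMIs in all mice, and in most classes its depth does not allow a test.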

Other observations

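Across the 18 cell classes, the genes whose mean levels ran most like those of each channel were found by Pearson correlation of log2(mean CPM + 1) among 11732 genes. These are descriptions over 18 points that share the same 6 libraries. Panx1 ran most like Zbtb25 (0.93), Snrpg and Cntrl (0.92). Gja1 ran with Sema3d (0.98), Igfbp3 (0.98) and Apol9a (0.97), and Gja4 with Sncg (0.98), Rhoj (0.97) and Ecm2. Gja5 ran with Dusp26 (0.97), Gkn3 (0.95) and Fam181b (0.95), Gjb2 with Aldh8a1, Aspdh and Asl (0.95 to 0.96), which are metabolic enzymes, Gjb1 with Gm49980 (0.92), Chpt1 and Slc31a1, and Gjc1 with Tgfb1i1 (0.96), Hdx (0.94) and Ehd2 (0.94).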
